A study of Mus musculus with 12 samples.

Results

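The miR-290 to miR-295 cluster was examined in the quadriceps of mice that lack cofilin-2 (KO), an actin-binding protein of muscle, and of wild-type (WT) littermates. Its members were taken by name, as every row called mmu-miR-290, miR-291a, miR-291b, miR-292, miR-293, miR-294 or miR-295, with either arm or a star. The cluster was selected on the difference in intensity of mmu-miR-290-5p between KO and WT, and the other members came with it by name. The names gave 14 of the 1096 miRNA names, the 5p and 3p arms of 7 hairpins. Total RNA was taken at postnatal day 7 from 6 WT (WT1 to WT6) and 6 KO mice (KO1 to KO6), the latter labelled cofilin-2 null and all of strain C57Bl/6, and was profiled on an array for the mouse miRNAs of miRBase version 17. The labels give the dye Cy5 for every WT and Cy3 for every KO sample, so that genotype and dye cannot be told apart in any comparison here. *Cfl2* mRNA is not measured by such an array, and the genotypes were not checked from the values. Nothing in the labels names the deleted allele or a cell type to which the loss is limited.

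MicroRNAs are short RNAs that pair with messenger RNAs through their seed, bases 2 to 8, and lower the output of those messengers. The miR-290 to miR-295 cluster is transcribed as a single precursor. It is known as the dominant miRNA cluster of mouse embryonic stem cells and the early embryo. Those of its 3p arms that carry AAGUGC in the seed promote rapid cell division there. The cluster is silenced as cells differentiate, and it is not known as a muscle miRNA cluster. The cluster of miR-302 and miR-367 is the other miRNA cluster of pluripotent cells, and the miR-17 family has a related seed and is active in many dividing cells.

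RefSeq, on the build GRCm38.p6, places the 7 hairpins at chr7:3218626-3220841 on the plus strand, in the order Mir290a, Mir291a, Mir292, Mir291b, Mir293, Mir294 and Mir295. The interval of the long non-coding RNA D7Ertd143e, chr7:3218784-3221015, covers 6 of them and starts after Mir290a. The interval of the protein-coding gene Nlrp12, chr7:3218643-3249771, also overlaps the cluster. RefSeq, as used and matched by name here, gave a mature sequence for 13 of the 14 arms, all but miR-292-3p. The array's miR-290-5p is entered there as miR-290a-5p, at chr7:3218639-3218660, and among the members a name without an arm was read as the 3p arm and a star as the 5p arm. The sequences below are those on which the results turn, 5′ to 3′, with the seed in capitals.
miR-290-5p: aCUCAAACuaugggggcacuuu
miR-292-5p: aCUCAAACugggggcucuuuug
miR-293*: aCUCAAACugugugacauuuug
miR-295*: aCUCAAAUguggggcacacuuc
miR-291a-5p: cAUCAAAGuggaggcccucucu
miR-291b-5p: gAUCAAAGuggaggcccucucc
miR-290-3p: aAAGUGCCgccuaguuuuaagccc
miR-294: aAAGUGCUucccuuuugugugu
miR-290-5p, miR-292-5p and miR-293* share a seed, and miR-290-5p is identical to each of the other two over its first 9 bases. miR-291a-5p and miR-291b-5p also share a seed and differ at 2 of 22 bases, C1G and U22C with miR-291a-5p first and positions counted from the 5′ end. miR-291a-3p, miR-294 and miR-295 carry the seed AAGUGCU. A run of 5 G (GGGGG) stands in miR-290-5p and miR-292-5p and in no other of the 13 arms with a sequence.

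Samples and array were first checked for what could bear on these miRNAs. The median miRNA of a sample had a normalised intensity of 12 to 14, and 349 to 377 names per sample reached 32. An intensity has no count behind it, and the number of mice, 6 per group, limits the precision. The brightness of different probes does not rank the levels of their miRNAs, and a fall in a miRNA per cell and a fall in the share of the cells that hold it cannot be told apart in whole muscle. Of the muscle miRNAs listed, miR-1a, miR-133a, miR-133b and miR-206 were bright, and the list summed to between 81016 and 93263 in WT and between 78886 and 105688 in KO. The slow-fibre and cardiac miRNAs miR-208b and miR-499 stayed under a mean of 32. KO1 stood apart from its group. Its mean Pearson correlation with the other KO samples, across the 370 names with a mean intensity of at least 32, was 0.848, against 0.907 to 0.945 for KO2 to KO6 and 0.949 to 0.970 for WT. Results that rest on KO1 are given with and without it.

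Few members of the cluster rose above the dim bulk of the array. Only miR-290-5p, miR-294 and miR-295* had a mean intensity of at least 32 over the 12 samples, and the same 3 reached 32 in 6 or more samples. The other 11 did not pass this filter. Of these, miR-292-5p reached 32 in 3 samples and miR-291b-5p in 1, and the remaining 9 reached it in none, with values of 0 to 25. Among the 9 were miR-290-3p, the opposite arm of the hairpin of miR-290-5p, at 12 to 25 in WT and 6 to 18 in KO, and miR-291a-3p, a main seed-bearing miRNA of embryonic stem cells, at 9 to 16 in WT and 4 to 16 in KO. At this chosen cut signal was not limited to miR-290-5p, and of the 7 3p arms only miR-294 had a mean of at least 32. At a cut of 100 in 6 or more samples, only 1 member, miR-290-5p, was left.

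**Figure D1:**
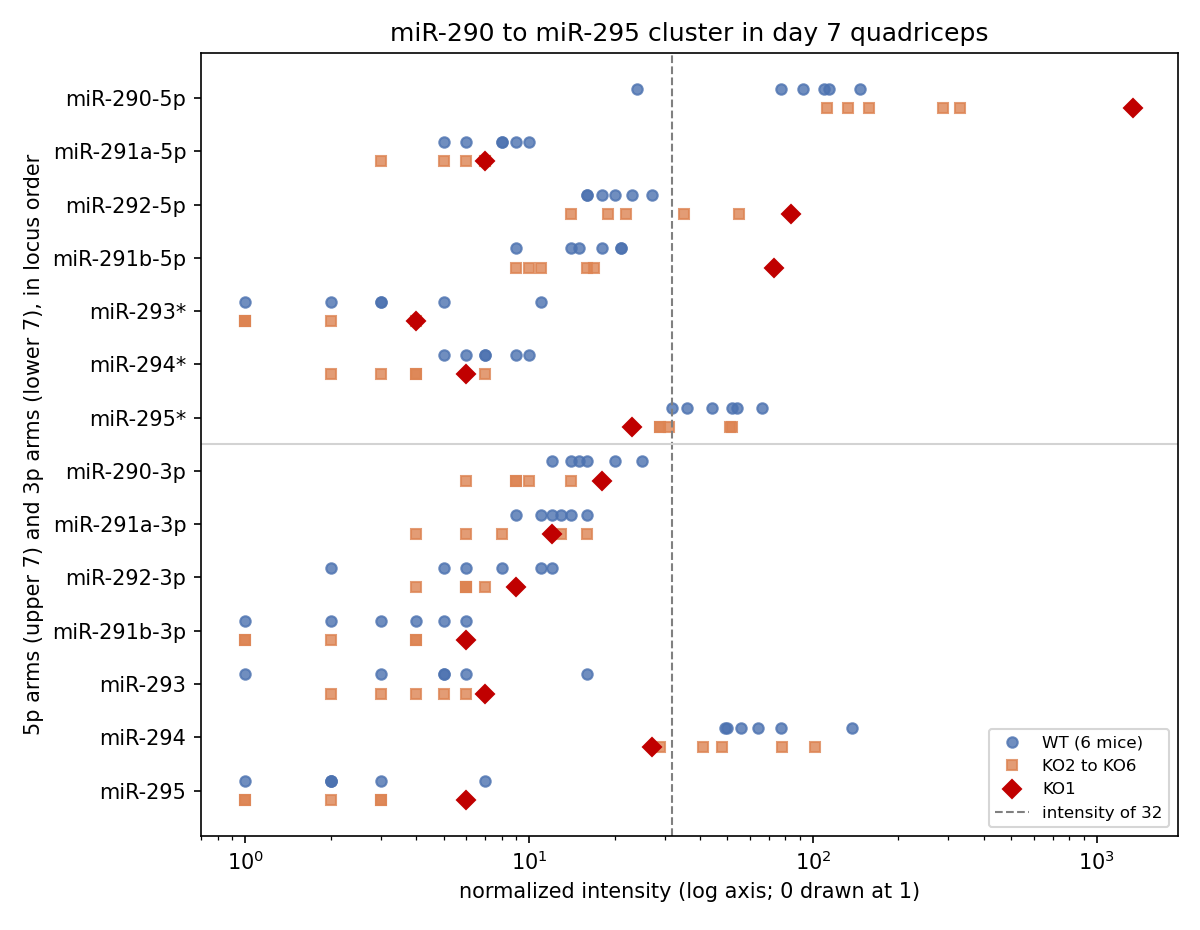
Normalised intensity (log axis, 0 drawn at 1) of the 14 members in each mouse, 5p arms above and 3p arms below, in the order of the locus. Circles are the 6 WT mice, squares KO2 to KO6 and diamonds KO1; the dashed line is an intensity of 32. miR-290-5p, miR-292-5p and miR-291b-5p are highest in KO1, and miR-294 and miR-295* are lowest there.

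miR-290-5p, the 5p arm of the first hairpin, had intensities of 24, 77, 92, 114, 109 and 147 in WT1 to WT6. In KO1 to KO6 it had 1343, 112, 330, 133, 157 and 287. KO1 was far above the others, WT1 was the lowest, 4 of the 6 KO samples lay above every WT sample, and KO2 and KO4 lay within the WT range. The WT mean was 93.8 ± 41.5 (SD, n = 6) and the KO mean 394 ± 473 (SD, n = 6). The log2 difference, KO minus WT, was 1.65 (standard error 0.583), the fourth highest of the 370 names tested. This miRNA was singled out for its difference between KO and WT, so the values are a description and no p is given. The KO mean was 204 ± 98.1 (SD, n = 5) without KO1, the log2 difference was then 1.18, and without both KO1 and WT1 it was 0.82. The direction was the same in all of these.

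miR-292-5p, which has the seed and the G run of miR-290-5p, was dim in WT, at 16, 18, 20, 16, 23 and 27. In KO it had 84, 14, 35, 22, 19 and 55. KO1, KO3 and KO6, the same mice in which miR-290-5p was highest, were above every WT sample, and KO2 was below every WT sample. Its log2 difference was 0.67, and 0.39 without KO1. Over the 12 samples the log2 intensities of miR-290-5p and miR-292-5p had a Pearson r of 0.86 and a Spearman rho of 0.73, and without KO1 an r of 0.71. These correlations are descriptions over mice that share 2 genotype groups, and no p is given. miR-293*, with the same seed and no run of 5 G, had values of 1 to 11 in WT and 0 to 4 in KO.

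miR-291b-5p was high in KO1 alone. Its intensities were 21, 18, 14, 15, 9 and 21 in WT and 73, 10, 9, 16, 11 and 17 in KO. The other 5 KO samples lay within the WT range, and the log2 difference went from 0.06 with KO1 to -0.37 without it. Its near twin miR-291a-5p was not high in KO1, where it was 7, and it ranged from 3 to 7 in KO2 to KO6 and from 5 to 10 in WT. The probe sequences of the array were not analysed here, and whether such pairs share signal was not tested.

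miR-294, a 3p arm with the stem cell seed AAGUGCU, had intensities of 50, 77, 137, 64, 56 and 49 in WT1 to WT6. It had 27, 102, 41, 29, 48 and 78 in KO1 to KO6. The groups overlapped, with 4 KO samples below every WT sample and KO1 the lowest of the 12. The WT mean was 72.2 ± 33.4 (SD, n = 6) and the KO mean 54.2 ± 29.8 (SD, n = 6), a log2 difference of -0.49 (standard error 0.363, adjusted p = 0.502 from limma). This did not pass the threshold of 0.05, and without KO1 the log2 difference was -0.32.

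miR-295*, the 5p arm of the last hairpin, had intensities of 32, 54, 66, 52, 36 and 44 in WT. In KO it had 23, 52, 29, 29, 31 and 51. Again 4 KO samples lay below every WT sample, and KO1 was the lowest. The WT mean was 47.3 ± 12.6 (SD, n = 6) and the KO mean 35.8 ± 12.4 (SD, n = 6), a log2 difference of -0.43 (standard error 0.261, adjusted p = 0.394 from limma), which also missed the threshold. Without KO1 the log2 difference was -0.31. Over 23 other settings its adjusted p ran from 0.0295, with array weights, to 0.640, and that of miR-294 ran from 0.0782 to 0.796. With array weights 115 of the 370 names passed the threshold, against 5 in the fit reported. The log2 intensities of miR-294 and miR-295* had a Pearson r of 0.92 and a Spearman rho of 0.93 over the 12 samples, and an r of 0.89 without KO1. Neither rose with miR-290-5p over the 12 samples, with r of -0.44 for miR-294 and -0.41 for miR-295*. Their r was -0.13 and -0.06 without KO1, and -0.39 and -0.47 without both KO1 and WT1. Their Spearman rho with miR-290-5p was -0.57 and -0.61 over the 12 samples, and -0.44 and -0.49 without KO1.

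Across the 3 members tested, none passed the adjusted threshold in limma, where 1.35% of the 370 names did. At an unadjusted p under 0.05 there was 1 member, miR-290-5p, against 19.5% of the names, and nothing is read from it because it was singled out on this contrast. With all 1096 names kept, none of the 14 members passed the adjusted threshold, where 0.0912% of names did. In that fit 11.2% of names had an unadjusted p under 0.05. Leaving aside miR-290-5p, which was selected on this contrast, 2 members had such a p, miR-290-3p and miR-294*, both lower in KO and both dim, at log2 differences of -0.67 (adjusted p = 0.403 from limma) and -0.84 (adjusted p = 0.341 from limma). In this fit 3 members were higher and 11 lower in KO, with a median of -0.37, while 453 of the 1096 names were higher and 643 lower, with a median of -0.08. That split depends on the scaling, with 7 members lower after quantile normalization and 8 lower after cyclic loess. As deposited, of the 11 members under the filter 9 had a lower and 2 a higher mean log2 intensity in KO. The 9 are those that never reached 32, and they were lower by between 0.04 and 0.84. At their intensities steps of whole numbers are a large share of the value. The other 2, miR-292-5p and miR-291b-5p, reached 32 in KO samples only, so this cut by itself sets the higher ones apart.

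**Figure D2:**
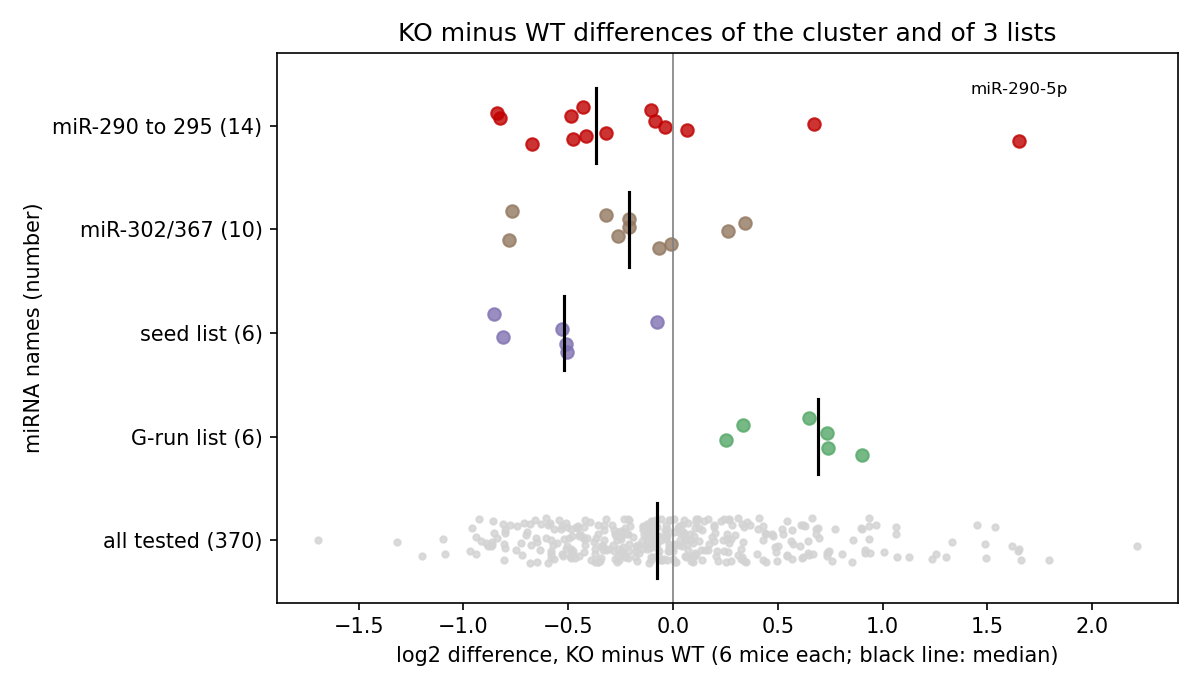
Log2 difference in normalised intensity, KO minus WT, for the 14 cluster members, the 10 names of miR-302 and miR-367, the seed list, the G-run list and all 370 names tested. Each point is a miRNA name, vertical position within a row has no meaning, and the black line is the median. miR-290-5p, on whose difference the cluster was selected, lies at 1.65. The median of the cluster is -0.37 as drawn and was -0.12 after quantile normalization.

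The other miRNA cluster of pluripotent cells gave little signal. All 10 names of miR-302 and miR-367 were at 0 to 15 in every sample, and none had a mean of at least 32. The summed intensity of miR-302a, miR-302b, miR-302c, miR-302d and miR-367 was 4 to 39 in WT and 2 to 22 in KO, with 22 in KO1. The median log2 difference of the 10 was -0.21, with 2 higher and 8 lower in KO. Of all 1096 names in the same fit 453 were higher and 643 lower, with a median of -0.08. The sign of the median of the 10 turned with the scaling, to 0.06 after cyclic loess.

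Among the tested names with a RefSeq sequence, 6 outside the cluster carry AAGUGC within bases 1 to 8, and these 6 (miR-17, miR-20a, miR-20b, miR-93, miR-106a and miR-106b) belong to the miR-17 family. Of the 1679 mature sequences in RefSeq, 1.07% hold these letters there. Of all 370 names 210 were lower in KO, with a median log2 difference of -0.08. All 6 of the list had a lower mean in KO, with a median log2 difference of -0.52. None passed the adjusted threshold in limma and 2 had an unadjusted p under 0.05, against 9.73% of the 370 names in this direction. The list was chosen with earlier results of these data known, so these counts are descriptions. Of the 3 with the highest mean intensity, miR-17, a promoter of cell division, averaged 602 ± 97.9 (SD, n = 6) in WT. Its KO mean was 356 ± 130 (SD, n = 6), a log2 difference of -0.81 (adjusted p = 0.0896 from limma). miR-20a had a WT mean of 399.8 ± 68.9 (SD, n = 6) and a KO mean of 290.8 ± 108 (SD, n = 6), with a log2 difference of -0.53 (adjusted p = 0.277 from limma). For miR-93 the WT mean was 366.8 ± 170 (SD, n = 6) and the KO mean 219 ± 155 (SD, n = 6), with a log2 difference of -0.85 (adjusted p = 0.210 from limma). KO1 was the lowest sample for none of the 6. The endothelial miRNAs miR-126-3p and miR-126-5p, of which only the former had a mean of at least 32, had a summed intensity of 2233 to 4745 in WT and 765 to 2709 in KO. The log2 difference of miR-126-3p was -1.20 (adjusted p = 0.0615 from limma), and the part of endothelial content in the values of the 6 was not tested.

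Likeness to miR-290-5p was ranked over the 369 other names with a mean of at least 32, which leaves out miR-292-5p (r of 0.86, as given above). Over the 12 samples the 5 highest Pearson correlations of log2 intensity among them were those of miR-5105 (0.93), miR-3077* (0.88), miR-1894-3p (0.87), miR-3960 (0.85) and miR-2861 (0.84), where the median name had -0.06. Their Spearman rho was 0.87, 0.85, 0.83, 0.82 and 0.73. Without KO1 the Pearson correlations were 0.85, 0.81, 0.82, 0.87 and 0.70. On deviations from the group means, which leave out the difference between KO and WT, miR-5105 was again first (0.89), followed by miR-680 (0.87) and miR-365-1* (0.86). On the log2 intensities themselves miR-680 had an r of 0.81 over the 12 samples and 0.55 without KO1, and miR-365-1* had 0.82 and 0.62. These names were picked as the highest of many, so that their correlations are descriptions.

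The per-sample values show where the likeness lies. miR-5105 had 260, 308, 362, 368, 440 and 545 in WT and 4475, 636, 1297, 683, 404 and 1263 in KO. As with miR-290-5p, WT1 was the lowest sample and KO1, KO3 and KO6 were the highest. miR-680 had 36, 59, 61, 119, 50 and 89 in WT and 977, 26, 118, 66, 26 and 199 in KO. It was high in KO1 and KO6, while KO2 and KO5 were below every WT sample. miR-3960 had 6724, 9169, 8681, 10727, 11167 and 10300 in WT and 17942, 15323, 18056, 11236, 13946 and 14982 in KO. KO1 was not the highest sample for miR-3960. KO1 was the highest of the 12 samples for 71 of the 370 names (19.2%) and the lowest for 91 (24.6%), and WT1 was the lowest for 36 (9.73%).

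**Figure D3:**
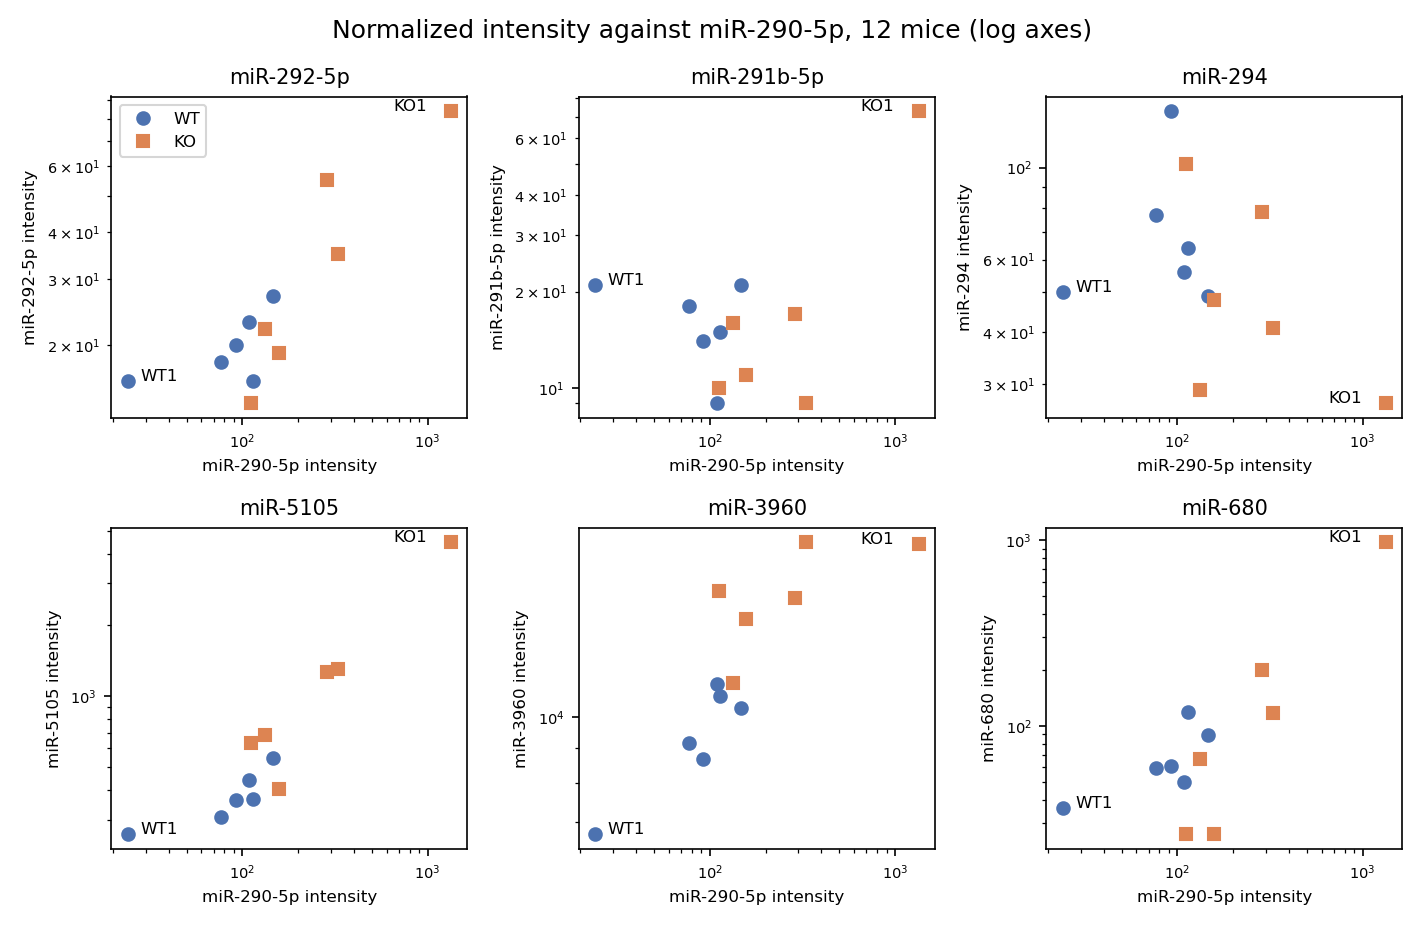
Normalised intensity of 6 miRNAs against that of miR-290-5p in the 12 mice, on log axes. Circles are WT and squares KO. miR-5105 is ordered much like miR-290-5p (Spearman rho 0.87), and miR-292-5p less so (0.73), with KO2 its lowest sample. miR-291b-5p is separate in KO1 only, and miR-294 is lowest in KO1.

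Of the names just described, miR-680 and miR-365-1* hold a run of 5 G, as miR-290-5p and miR-292-5p do. Of the 5 names most correlated with miR-290-5p, miR-1894-3p and miR-2861 do not hold it, and RefSeq as used here gave no sequence for miR-5105, miR-3077* and miR-3960. The mature sequences are printed with the run in capitals, for the cluster members and for the other named miRNAs that hold it.
miR-290-5p: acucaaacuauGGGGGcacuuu
miR-292-5p: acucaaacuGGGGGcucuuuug
miR-365-1*: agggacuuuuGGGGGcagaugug
miR-680: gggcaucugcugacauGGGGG
miR-5126: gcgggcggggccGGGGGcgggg
miR-149*: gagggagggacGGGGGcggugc
GGGGG stands in 2.38% of the 1679 mature entries of RefSeq. Of the 370 tested names 78.9% had a sequence there, and outside the cluster 6 of them hold the run. All 6 had a higher mean in KO, with a median log2 difference of 0.69, where 160 of all 370 names were higher and the median was -0.08. miR-290-5p, which holds the run, was selected on this contrast, and the list was chosen with earlier results of these data known. The count is thus a description. None passed the adjusted threshold in limma, and 3 had an unadjusted p under 0.05, against 9.73% of the 370 names in this direction. The 3 with the highest mean intensity were miR-5126, miR-149* and miR-680. miR-5126 averaged 13030 ± 2053 (SD, n = 6) in WT, and its KO mean was 22108 ± 5553 (SD, n = 6), a log2 difference of 0.73 (adjusted p = 0.0908 from limma). The WT mean of miR-149* was 4902 ± 1966 (SD, n = 6) and its KO mean 8860 ± 2569 (SD, n = 6), a log2 difference of 0.90 (adjusted p = 0.0955 from limma). Without KO1 the log2 difference was 0.68 for miR-5126 and 0.78 for miR-149*. The log2 difference of miR-680, whose values are given above, was 0.65 (adjusted p = 0.707 from limma) and -0.01 without KO1. That of miR-365-1* was 0.25 and fell to 0.06 without KO1. KO1 was the highest sample for 4 of the 6 and WT1 the lowest for 3. The median of the 6 was 0.46 without KO1 and 0.34 without KO1 and WT1. The part of G content in any of these differences was not tested.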

How the data were processed

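The authors deposited normalised intensities, linear and in whole numbers, for 12 quadriceps samples. The paper's methods and the labels give RNA isolation with the miRVana kit and hybridisation by a service provider. The normalisation method, the background correction and the handling of repeated spots are not given in the sources used here.

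For the fit, log2 was taken after any value below 1 was set to 1. The test covered the 370 names whose mean over the 12 samples was at least 32. It was the moderated test of limma 3.58.1 (lmFit, eBayes) in R 4.3.3, two-sided, with Benjamini-Hochberg adjustment over all names tested and a threshold of 0.05. The fit was tested on simulated data. Means ± SD are of linear intensities. The methods give pairs of littermates, and no source used here ties a replicate number to a pair. The fit therefore leaves the pairing out, and differences between litters stay in the spread on which the p-values are based.

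The members and lists were chosen with earlier results of these data known. The names described were all cluster members, the 5 names most correlated with miR-290-5p over the 12 samples, the 3 most correlated after removal of group means, and the 3 brightest of the seed and G-run lists. Where an array name gives no arm, both arms were searched, and the arm was set by hand where they differed. The alternatives were other floors, pseudocounts, filters, normalisations, a replicate block, other variance models, an equal-variance test and leaving out each sample. Leaving out KO1 and WT1 together was chosen after seeing the data. Sequences and positions are from RefSeq, GRCm38.p6. Plots were drawn with matplotlib 3.10.9.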

Additional observations from a re-analysis of the deposited data

Results flagged for a closer look

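Dixon's test was applied on the log2 scale to the 6 values of each member in WT and in KO, 28 sets in all, and asks whether an extreme mouse lies too far from the next one (5% level). By chance alone 1.4 of 28 sets would be picked out, and 2 were. The 1.4 takes no account of the selection on miR-290-5p or of tied whole numbers at low intensity. miR-290-5p was at 24 in WT1 and at 77 to 147 in the other WT samples, a gap to the next value of 0.643 of the log2 range. These WT values entered the selection of the cluster, so that this flag is a description. miR-291b-5p was at 73 in KO1 and at 9 to 17 in the other KO samples, a gap to the next value of 0.696 of the log2 range.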

How the results depend on the processing

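The log2 difference of miR-290-5p, 1.65, stayed positive in all settings tried. It ran from 1.22 with a pseudocount of 50 to 2.07 as the ratio of arithmetic means, from 1.18 without KO1 to 1.89 without KO2, and was 0.82 without KO1 and WT1, a setting chosen after seeing the data. With a mean intensity of at least 500 no member and no name of the seed list or of miR-302 and miR-367 was left to test. For the 9 members that reached 32 in no sample, a difference amounts to a few intensity units, and signal limits what can be read from them. No member passed the adjusted threshold in the fit reported, with a sample left out or in the alternatives, except with array weights. There 2 did, miR-295* and miR-290-5p, in a fit where 115 of the 370 names passed. miR-290-5p was selected on this same contrast, so that its passing is not a test. The number of members reaching the threshold for signal in 6 or more samples was 3 at an intensity of 32 and 1 at 100. Among all names, 5 passed the adjusted threshold in the fit reported. This was 14 with a pseudocount of 50 and with variance trend and robust estimation, 1 with no filter, 21 with a mean of at least 500, 8 after quantile normalization, 11 after cyclic loess, 115 with array weights and 16 without KO1 and WT1. With a sample left out it was 3 (without WT3 or KO2) to 49 (without KO1), with 8 without KO4 and 11 without WT4. No filter and the higher filter change the number of names tested, and for the rest the cause was not tested. The median of the miR-302 and miR-367 list ran from -0.41 without KO5 to 0.07 without KO4, and it was also above 0, at 0.02, without WT1 and at 0.06 after cyclic loess. Of the 14 members 11 were lower in KO as deposited, 10 after median centring, 8 after cyclic loess, 7 after quantile normalization and 8 without WT1. The median of the seed list ran from -0.68 to -0.39 and that of the G-run list from 0.46 to 0.78 with a sample left out.

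No source used here ties a replicate number to a littermate pair, and the check for pairing, a correlation over 0.1 in every pair, was not met, so the numbers were not taken as pairs. Same-numbered WT and KO mice had correlations of deviations from -0.45 to 0.59, over 0.1 in 3 of 6 pairs. Their median was 0.12, against 0.003 for mice of different numbers, and 5 of the 12 samples correlated best with their own number. Whether the numbers follow litters was not settled by this check. With the replicate number as a block, 4 names passed instead of 5, and no member did; the log2 difference of miR-290-5p was 1.65.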
